A study of Homo sapiens with 5 samples.

Results

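Tumour cells display ligands that natural killer (NK) cells and T cells read, and the transcripts of 10 of them were followed here on 5 exon arrays of human lung cancer cells in which NEDD9 was lowered or raised. The list comprised the NKG2D ligands ULBP1, ULBP2, ULBP3, MICA, MICB and RAET1E, the nectin-family ligands PVR and NECTIN2, and the B7-family ligands CD274 and CD276. The list was chosen by ligand family after the low value of ULBP1 on the NEDD9 overexpression array was known, so its values in that comparison are given as a description. A gene was measured when a feature of the array (a transcript cluster, which summarises probes over the exons of a gene) was annotated with that symbol and no other. On this basis 7 of the 10 genes were measured, by 1 feature each, among 14232 genes in all. ULBP2 and ULBP3 were annotated only on features that carried several symbols, MICA was not annotated in the table used, and no value is given for these 3 genes.

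The tested cells were A549 with the hairpin shNEDD9 #1 (1 array), A549 with the hairpin shNEDD9 #2 (1 array) and CRL-5907 with NEDD9 overexpression (1 array). They were set against 1 A549 control array and 1 CRL-5907 control array. A549 is an established lung adenocarcinoma line, and all 3 of its arrays carry, per the submitters, mutant LKB1 (a tumour-suppressor kinase) that has lost its function, and increased NEDD9, a scaffold protein of focal adhesions. CRL-5907, also from lung cancer, has intact wild-type LKB1 and little NEDD9 according to the submitters. The labels give no time point, no construct for the controls and no word on whether cultures were separate. The comparisons ask whether ligand transcripts differ when NEDD9 is lowered in one line or raised in the other.

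NKG2D is an activating receptor of NK cells and cytotoxic T cells. Its ligands are distant relatives of HLA class I that are sparse on most healthy cells and appear on stressed, infected or transformed ones. PVR (CD155) and NECTIN2 (CD112) are adhesion molecules that engage the activating receptor DNAM-1 and the inhibitory receptor TIGIT, and NECTIN2 also binds the inhibitory receptor PVRIG. CD274 (PD-L1) engages PD-1 and restrains T cells, and it is induced by interferon-gamma. CD276 (B7-H3) is a B7 relative found on many carcinomas.

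NEDD9 itself followed the labels, with log2 levels of 8.35 with hairpin 1 and 8.52 with hairpin 2, against 8.94 on the A549 control, and 9.49 with overexpression, against 4.66 on the CRL-5907 control. The knockdown was therefore partial, with log2 differences of -0.59 and -0.41, and the overexpression was large (4.83, a lower bound because the control value was below its array's median). Of 8 markers of lung epithelium and carcinoma, 7 lay above the array median on each A549 array and 8 on both CRL-5907 arrays. Of 14 measured receptors and lytic genes of NK and T cells, 1 (NKG7) lay above the median on each of the 5 arrays. Of 6 measured leukocyte markers, CD68 lay above the median on all 5 arrays and CD14 on all but hairpin 2, while PTPRC, MS4A1, CSF1R and LYZ lay below it on all 5, PTPRC at 1.72. The mean log2 level of these 6 was 5.43 with hairpin 1 and 5.27 with hairpin 2, against 5.11 on the A549 control, and 5.18 with overexpression, against 5.20 on the CRL-5907 control. Within them LYZ differed by 1.99 and 1.78 with the hairpins and CD14 by -0.39 and -0.84, and their part in the ligand values was not tested. Each value below is a log2 level from 1 array, normalised by RMA, and the number of arrays limits the precision. Levels are compared between arrays for the same gene and never between genes, because probes differ in brightness. A value below its array's median (5.69 to 5.85 over features with 1 symbol) was not shown to exceed background. As a yardstick, each difference is also set against the SD of the difference between the 2 hairpin arrays over genes of like level, called the like-level SD. It holds true differences between the hairpins too, and it comes from A549 and was carried over to CRL-5907. In bulk RNA of this kind, fewer cells expressing a gene and less RNA per cell cannot be told apart.

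Of the 7 measured genes, 5 passed the level filter of every comparison, which asked that at least 1 array of the comparison lie above its median. These were ULBP1, MICB, NECTIN2, PVR and CD276. RAET1E and CD274 lay below the median on all 5 arrays and enter no count.

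The sequences just upstream of ULBP1, MICB and CD274 are shown because these 3 genes lay furthest from their controls with the hairpins and with overexpression. Each line holds the 250 bases before the RefSeq gene start (GRCh38.p14), 5′ to 3′ on the plus strand, which is the strand of all 3 genes. The windows are chr6:149963693-149963942 for ULBP1, chr6:31497895-31498144 for MICB and chr9:5450292-5450541 for CD274. Capitals mark matches, on either strand, to the motifs described after them.
ULBP1: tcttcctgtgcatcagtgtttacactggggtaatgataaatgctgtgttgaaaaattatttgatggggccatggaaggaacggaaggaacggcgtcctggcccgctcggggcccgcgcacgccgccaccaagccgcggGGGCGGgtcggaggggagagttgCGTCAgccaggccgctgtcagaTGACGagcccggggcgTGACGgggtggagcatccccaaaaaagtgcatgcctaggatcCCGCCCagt
MICB: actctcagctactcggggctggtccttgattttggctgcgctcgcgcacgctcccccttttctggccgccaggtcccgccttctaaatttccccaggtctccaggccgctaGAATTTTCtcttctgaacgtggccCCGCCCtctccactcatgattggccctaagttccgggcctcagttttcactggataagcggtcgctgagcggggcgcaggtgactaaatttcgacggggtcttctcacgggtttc
CD274: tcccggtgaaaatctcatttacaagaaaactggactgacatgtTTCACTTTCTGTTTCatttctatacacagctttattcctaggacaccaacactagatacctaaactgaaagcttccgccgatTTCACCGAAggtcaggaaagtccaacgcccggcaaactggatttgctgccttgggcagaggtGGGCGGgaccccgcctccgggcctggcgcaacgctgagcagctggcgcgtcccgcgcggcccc

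The motifs searched on both strands were the GC box bound by Sp-family factors (GGGCGG), the cyclic AMP response element bound by CREB and ATF factors (TGACGTCA) and its core (TGACG), the heat shock element (GAANNTTC), the interferon-gamma activated site (GAS, TTCNNNGAA) and a core of the interferon-stimulated response element (ISRE, GAAANNGAA). The core lies within the full element, and no full element was found in the 3 windows. ULBP1 held 3 such cores, beginning 89, 67 and 51 bases before the gene start, and 2 GC boxes. MICB held 1 heat shock element and 1 GC box, and CD274 held 1 GAS motif, 2 overlapping ISRE cores and 1 GC box. Among 35116 promoter windows of the same length, 42.6% held a GC box, 21.2% the TGACG core, 1.65% the full element, 5.78% the heat shock element, 6.57% the GAS motif and 6.88% the ISRE core. These are matches of letters, and the arrays carry no measurement of factor binding.

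Among the NKG2D ligands, ULBP1, a GPI-anchored ligand encoded on chromosome 6, was higher with both hairpins and much lower with overexpression. Its log2 level was 7.46 with hairpin 1 and 7.40 with hairpin 2, against 6.86 on the A549 control, and 4.96 with overexpression, against 6.47 on the CRL-5907 control. The 2 hairpin arrays were the highest of the 5 and the overexpression array was the lowest. ULBP1 was 1.52-fold higher with hairpin 1 and 1.45-fold higher with hairpin 2, a mean log2 difference of 0.57 ± 0.05 (SD, n = 2). That SD is the spread between the hairpins and leaves out the error of the single control that both share. The hairpin differences were 3.63 and 3.25 like-level SDs, and the arrays of the 2 hairpins lay 0.06 apart, which is within 1 such SD (0.166).

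With overexpression the log2 difference of ULBP1 was -1.51, or 2.85-fold lower, and 9.11 like-level SDs. That SD is for genes near the mean of ULBP1 over the 5 arrays, and genes near its overexpression level had larger ones. The lytic gene PRF1, at 4.81, had 0.205, so 9.11 overstates the size in SDs. The overexpression value of ULBP1 lay below its array's median of 5.70, so the fold is read as a lower bound on the size. ULBP1 had the lowest difference of the 7410 genes that passed the filter in CRL-5907, the value on which the choice of the list rests. With the hairpins it ranked 111 from the top of 7491 genes by mean difference. A 1.5-fold rule for both hairpins was missed by hairpin 2 alone.

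MICB, a transmembrane ligand encoded in the HLA region of chromosome 6, lay on the other side of its controls. Its log2 level was 6.03 with hairpin 1 and 6.35 with hairpin 2, against 6.66 on the A549 control, and 7.17 with overexpression, against 6.76 on the CRL-5907 control. Both hairpin arrays were below every other array, and the overexpression array was the highest. MICB was 1.54-fold lower with hairpin 1 and 1.24-fold lower with hairpin 2, a mean log2 difference of -0.47 ± 0.23 (SD, n = 2), and 1.33-fold higher with overexpression. The difference with hairpin 1 was 3.76 like-level SDs, that with hairpin 2 was 1.84, and that with overexpression was 2.49. By mean hairpin difference MICB ranked 62 from the bottom of 7491 genes. The control arrays of the lines differed by -0.10 (A549 minus CRL-5907), within the like-level SD. MICA and MICB are close paralogues, and probes for one may take up transcript of the other.

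The order of the 5 arrays in MICB was the exact reverse of that in ULBP1. ULBP1 ran from hairpin 1 through hairpin 2, the A549 control and the CRL-5907 control down to overexpression, and MICB ran from overexpression down to hairpin 1. Of 8039 genes that passed the filter on any array, 6.37% had the array order of ULBP1 and 2.18% that of MICB. Both orders were read from these same values, so the shares do not measure how unusual the genes are. The lowest place in the ULBP1 order is also the value on which the list was chosen. Neither order is that of NEDD9, which was lowest on the CRL-5907 control. Neighbours closer than the like-level SD were the 2 hairpin arrays in ULBP1 and the 2 control arrays in MICB.

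RAET1E (ULBP4), a further NKG2D ligand on chromosome 6, had log2 levels of 4.23 with hairpin 1 and 4.56 with hairpin 2, against 4.34 on the A549 control, and 4.71 with overexpression, against 4.75 on the CRL-5907 control. All 5 values lay below the array medians. The hairpins lay on either side of their control (log2 differences of -0.11 and 0.22), and the like-level SD was 0.241.

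**Figure D1:**
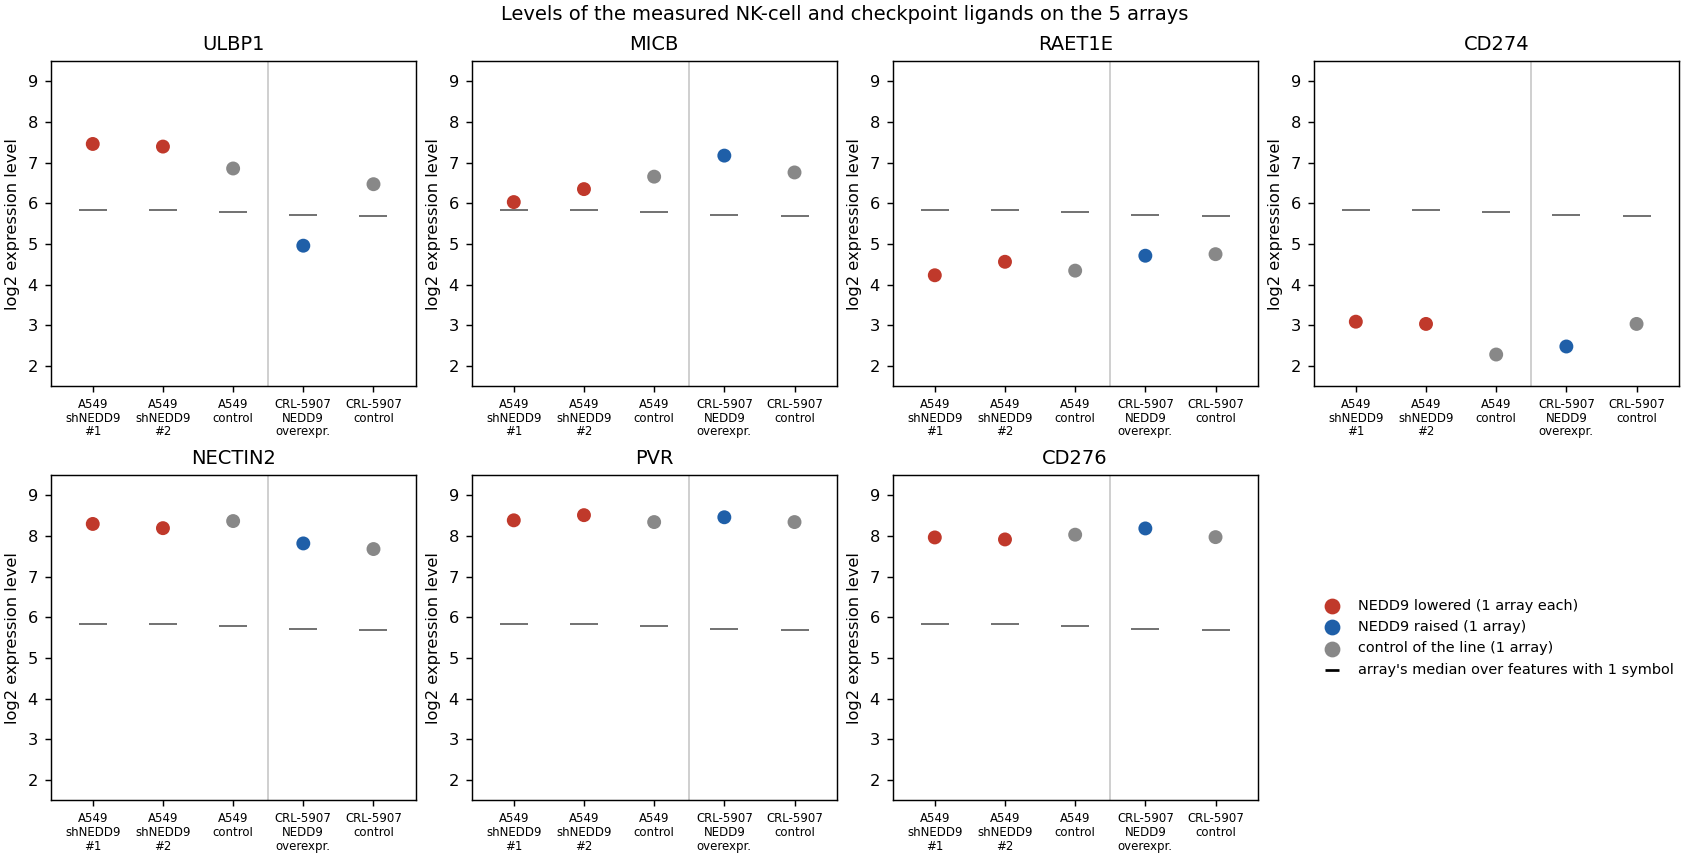
Normalised log2 expression level of each measured ligand gene on each of the 5 arrays, 1 point per array with no error bar because no array was repeated; the short dashes mark the median of each array. ULBP1 is highest with the 2 hairpins (7.46 and 7.40) and lowest with overexpression (4.96), while MICB is lowest with the hairpins (6.03 and 6.35) and highest with overexpression (7.17).

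The nectin-family ligands PVR and NECTIN2, both encoded on chromosome 19, differed little from their controls. PVR had log2 levels of 8.39 with hairpin 1 and 8.52 with hairpin 2, against 8.35 on the A549 control, and 8.46 with overexpression, against 8.35 on the CRL-5907 control. Its largest difference, 0.17 with hairpin 2, was 1.26 like-level SDs. The 2 control values of PVR were exactly equal, which RMA can produce: any pair of arrays agreed exactly in 6.25% to 8.97% of features. The difference of 0 between the lines does not show that PVR was the same in both.

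NECTIN2 had log2 levels of 8.30 with hairpin 1 and 8.20 with hairpin 2, against 8.37 on the A549 control, and 7.82 with overexpression, against 7.68 on the CRL-5907 control. The differences of -0.07, -0.17 and 0.14 were 0.516, 1.27 and 1.00 like-level SDs. The lines were further apart than either manipulation moved the gene: every A549 array lay above both CRL-5907 arrays.

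Of the B7-family ligands, CD276 on chromosome 15 had log2 levels of 7.97 with hairpin 1 and 7.92 with hairpin 2, against 8.04 on the A549 control, and 8.19 with overexpression, against 7.98 on the CRL-5907 control. It was 1.16-fold higher with overexpression, 1.55 like-level SDs, and its hairpin differences of -0.07 and -0.12 were within 1 such SD.

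CD274 on chromosome 9 had log2 levels of 3.09 with hairpin 1 and 3.03 with hairpin 2, against 2.28 on the A549 control, and 2.48 with overexpression, against 3.03 on the CRL-5907 control. All 5 values were far below the array medians, so PD-L1 transcript was not shown above background on any array and no fold is given. The hairpin differences (0.81 and 0.75) and the overexpression difference (-0.56) had the signs of those of ULBP1, at 3.35, 3.12 and 2.30 like-level SDs. The value with hairpin 2 was exactly that of the CRL-5907 control, another of the equal values described for PVR.

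**Figure D2:**
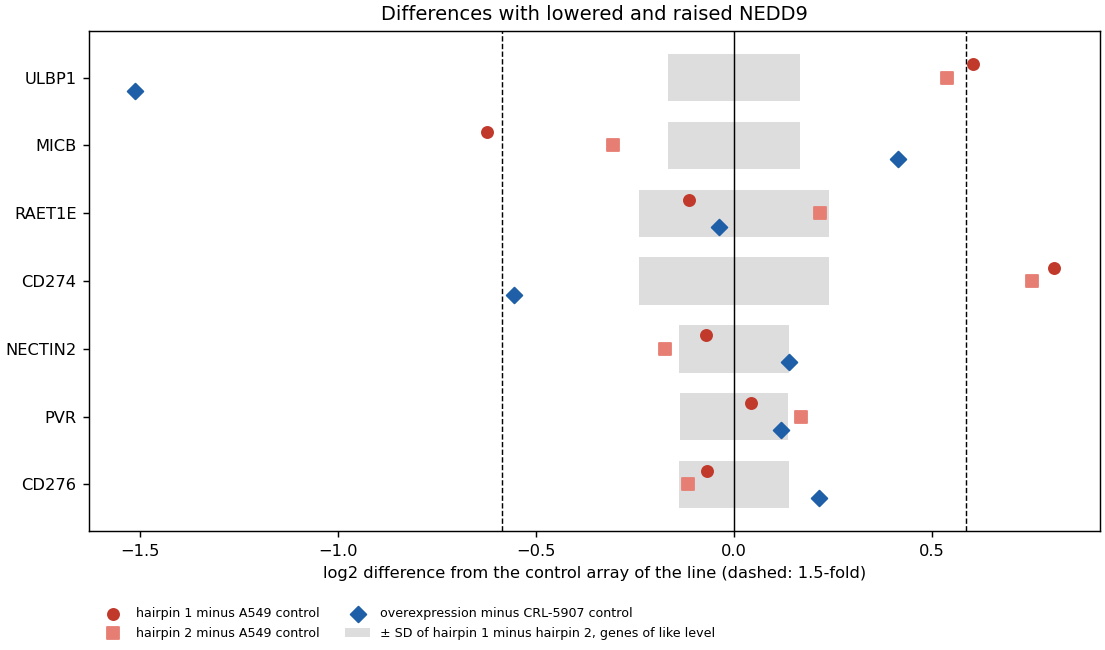
Log2 difference of each measured ligand gene from the control array of its line, with 1 point for each hairpin and 1 for overexpression, grey bars for plus and minus the like-level SD, and dashed lines at 1.5-fold. ULBP1 stands at 0.60 and 0.54 with the hairpins and -1.51 with overexpression, MICB at -0.63, -0.31 and 0.41, and the points of PVR, NECTIN2 and CD276 lie in or just outside the grey bars.

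Counted by fixed folds, few ligands passed. With knockdown, 0 of the 5 ligands above the filter reached 1.5-fold higher in the 2 hairpin arrays and 0 reached 1.5-fold lower, where 0.708% of 7491 genes were higher and 0.133% were lower. With overexpression, 0 of 5 were at least 1.5-fold higher and 1, ULBP1, was lower, against 3.5% of 7410 genes higher and 0.85% lower. The list was chosen with that low ULBP1 value known, so the count of 1 was fixed in advance and is no evidence of enrichment. ULBP1 passed this filter through its control array only. Over all genes the overexpression counts were 259 higher and 63 lower, and the split was 188 and 111 after a further quantile normalization of the arrays. For knockdown the split was 53 and 10, or 40 and 18 after that step. The median difference of the 5 ligands was -0.09 with knockdown, where that of all genes above the filter was 0.07, and 0.14 with overexpression, where that of all genes was 0.05.

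limma, whose error here is the hairpins' own spread, also applied to the single control, called 0 of the 5 ligands and 0 of 7491 genes (0%) with knockdown at an adjusted p under 0.05 (Benjamini-Hochberg). For ULBP1 the log2 difference was 0.57 (SE 0.05), with limma's unadjusted p = 0.0112 and adjusted p = 0.275, a value it shared with many others (1062 genes in all) as the lowest of the fit. For MICB it was -0.47 (SE 0.21), with limma's adjusted p = 0.422. At an unadjusted p under 0.05 limma gave 1312 of 7491 genes and, a similar share, 1 of the 5 ligands, ULBP1. By chance 375 genes would be expected at that threshold, so an unadjusted p under 0.05 was common in this fit. The overexpression array has no replicate and received no test.

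By sign alone, 1 of the 5 ligands, ULBP1, was higher with both hairpins and lower with overexpression, where 16.5% of 6862 genes that passed the filter in both lines were. The overexpression sign of ULBP1 was known when the list was chosen, so its place in this count was partly fixed in advance. The ligands lower with both hairpins and higher with overexpression numbered 3, namely MICB, NECTIN2 and CD276, where 10.1% of genes were. For NECTIN2 and CD276 the hairpin differences were 0.17 or less in size. PVR was higher in all 3 manipulated samples.

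**Figure D3:**
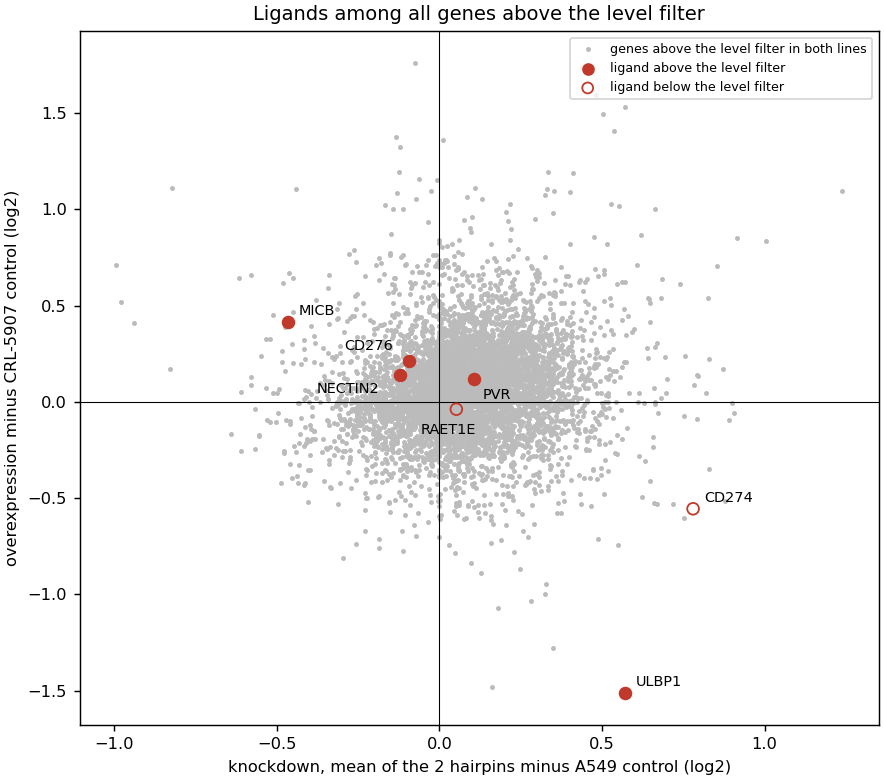
Log2 difference with overexpression (vertical axis) against the mean log2 difference of the 2 hairpins (horizontal axis) for all genes above the level filter in both lines (grey points) and the ligand genes (filled where above the filter, open where below it). ULBP1 lies lowest at 0.57 and -1.51, MICB at -0.47 and 0.41, CD274 as an open point at 0.78 and -0.56, and PVR, NECTIN2, CD276 and RAET1E lie in the dense centre.

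The lines were also compared with each other. At 2-fold between the 2 control arrays, A549 minus CRL-5907, 0 of the 5 ligands were higher and 0 were lower, against 9.82% of 7756 genes higher and 4.98% lower. NECTIN2 had the largest such difference among them, with 8.37 in the A549 control and 7.68 in the CRL-5907 control, 1.61-fold, against a like-level SD of 0.138. ULBP1 differed by 0.39 (2.33 like-level SDs), and CD276 by 0.06. The median over the 5 ligands was 0.06, and that of all genes was 0.05.

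With all 3 A549 arrays set against both CRL-5907 arrays, manipulated arrays included, limma called 2 of the 5 ligands, where it called 49% of 8039 genes. The error of this fit is the spread within a line, NEDD9 manipulations included. Each line had only 1 control array, so the arrays are not repeats of an unmanipulated line. NECTIN2 was higher in A549 by 0.54 (SE 0.09, limma's adjusted p = 0.00609). ULBP1 was higher by 1.52 (SE 0.46, limma's adjusted p = 0.042), a call that includes the overexpression value the list was chosen on and was lost without that array, without any 1 of the 3 A549 arrays and without the level filter. MICB differed by -0.62 (SE 0.22), with limma's adjusted p = 0.0633; it was called after a further quantile normalization and without the A549 control. CD276 (-0.11, limma's adjusted p = 0.385) and PVR (0.01, limma's adjusted p = 0.926) were not called. The A549 arrays lay wholly above the CRL-5907 arrays for 2 ligands, ULBP1 and NECTIN2, where 40.8% of genes did, and wholly below them for 1, MICB, where 26.8% did.

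**Figure D4:**
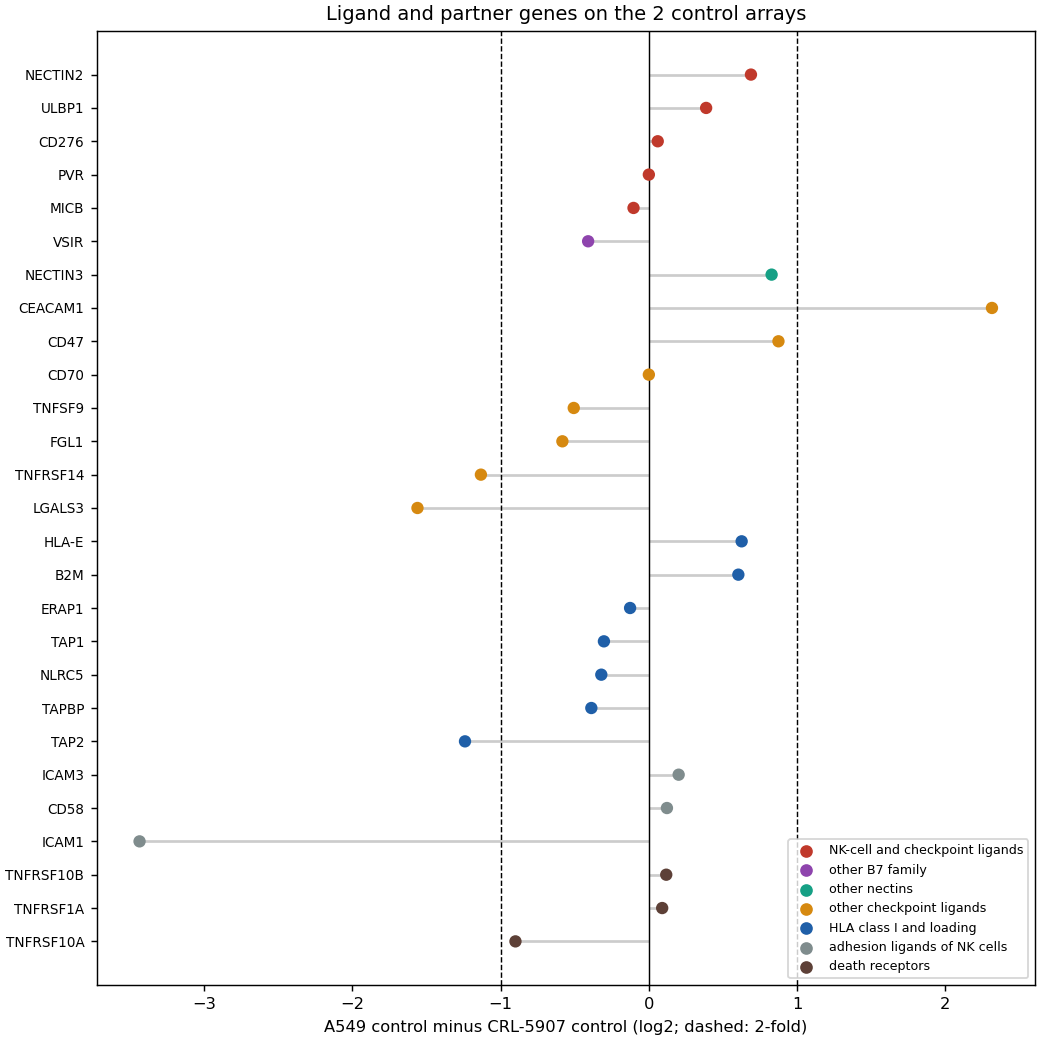
Log2 difference of the A549 control array minus the CRL-5907 control array, 1 point per gene, for the ligand genes and partner genes above the level filter, coloured by list, with dashed lines at a 2-fold difference. NECTIN2 (0.69) and ULBP1 (0.39) lie right of 0 and short of the 2-fold line, PVR lies on 0, and the adhesion ligand ICAM1 lies furthest to the left (-3.43).

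Features that carry several symbols were read apart from the genes, and none is assigned to a gene. A feature annotated to ULBP3, ULBP1 and RAET1K differed by -0.92 with hairpin 1, -0.10 with hairpin 2 and -0.44 with overexpression, so its hairpin differences had the opposite sign to those of the ULBP1 feature. Of 3 features shared by ULBP2 with RAET1G or RAET1L, the overexpression differences were -0.67, 0.95 and -0.18. A feature shared by PVR and CEACAM19 differed by 0.02, 0.12 and -0.12, and one shared by NECTIN2 and ZBED2 by -0.40, -0.06 and 0.03. All the ULBP features of several symbols, and the one shared by NECTIN2 and ZBED2, lay below the median on all 5 arrays. They were not shown above background.

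The genes whose profile over the 5 arrays was most like that of ULBP1 were found by the root mean square distance between log2 profiles, each less its own mean, among 8038 genes. They were NREP (0.264), the intraflagellar transport gene IFT46 (0.266), the receptor ROR1 (0.306), the iron exporter SLC40A1 (0.313) and the tetraspanin TSPAN7 (0.314), where the median gene lay at 0.899. SLC40A1 differed by 0.58 and 0.52 with the hairpins and -0.75 with overexpression. The other 4 had smaller hairpin differences and a larger gap between the lines than ULBP1. All 5 were lower with overexpression, with log2 differences of -1.13 to -0.72, which choice by likeness to ULBP1 favours. The overexpression values of NREP, IFT46 and ROR1 lay below that array's median, as did the CRL-5907 control values of NREP and IFT46, so these were not shown above background there. For CD274, whose values were near the bottom of the scale, the nearest were the ubiquitin ligase RNF146 (0.117), IFRD1 (0.140), ZNF189 (0.150), RHOBTB3 (0.151) and the mitochondrial import chaperone TIMM8B (0.153). These distances rest on 5 arrays and describe likeness of profile only.

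Partner genes of the ligands were read from 10 lists of 77 genes, of which 59 were measured. With knockdown, 33 passed the filter and 0 were at least 1.5-fold higher or lower with both hairpins. Of the 33, 48.5% were higher with both hairpins at any size and 15.2% were lower, where 53.7% and 21.4% of all genes were. With overexpression, 39 passed the filter and 0 were 1.5-fold higher or lower, while 82.1% were higher at any size, where 58.7% of all genes were. The 82.1% was not recomputed after rescaling. For the ligands PVR, NECTIN2, CD276 and MICB the overexpression differences were 0.12, 0.14, 0.21 and 0.41. They fell to 0.04, 0.06, 0.14 and 0.35 once the trend with level was removed. Between the control arrays, A549 minus CRL-5907, 2 of 40 partner genes were at least 2-fold higher and 5 were lower, where 9.82% and 4.98% of all genes were.

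The further checkpoint ligands included the gene closest to a difference with knockdown. FGL1, a secreted ligand of LAG-3, had log2 levels of 9.59 with hairpin 1 and 9.06 with hairpin 2, against 8.69 on the A549 control, and 9.56 with overexpression, against 9.27 on the CRL-5907 control. It was higher with hairpin 1 by 0.90, but by 0.37 with hairpin 2. CD47, the ligand of SIRP-alpha that restrains phagocytosis, differed by -0.03 with both hairpins and 0.32 with overexpression. TNFSF9, the ligand of 4-1BB, differed by -0.11 and -0.09 with the hairpins and 0.35 with overexpression. LGALS3, which encodes galectin-3, differed by 0.34 and 0.14 with the hairpins and 0.26 with overexpression. Of its A549 values only that with hairpin 1 exceeded the array's median (5.86 against 5.85). LGALS3 was thus not shown above background with hairpin 2 or on the A549 control. Of 7 measured further B7 genes, 0 passed the filter in A549 and 1, VSIR, passed it in CRL-5907, with a difference of -0.41 with overexpression, where its value lay below the median. NECTIN3, the nectin above the filter, differed by 0.04 and -0.17 with the hairpins and 0.15 with overexpression.

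HLA class I and its loading genes matter to NK cells because missing HLA class I releases them from inhibition. Of 9 measured, 6 passed the filter in A549 and 0 were past 1.5-fold. HLA-E, the ligand of NKG2A, differed by -0.12 with both hairpins and 0.09 with overexpression. The peptide trimming enzyme ERAP1 differed by 0.32 and 0.29 with the hairpins and 0.17 with overexpression, and the peptide transporter subunit TAP1 by -0.22, -0.09 and 0.18. B2M, the light chain of HLA class I, differed by 0.24 and 0.07 with the hairpins and 0.32 with overexpression.

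Among adhesion ligands, CD58, the ligand of CD2, differed by 0.08 and 0.26 with the hairpins and 0.26 with overexpression. ICAM1, the ligand of LFA-1, had log2 levels of 5.20 with hairpin 1 and 5.03 with hairpin 2, against 5.35 on the A549 control, and 8.78 with overexpression, against 8.79 on the CRL-5907 control. The lines thus differed far more than either manipulation. TNFRSF10A, a death receptor for TRAIL, differed by 0.37 and 0.45 with the hairpins and 0.23 with overexpression.

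Known regulators were also read. JMJD1C, a JmjC-domain protein placed in the list of NKG2D-ligand regulators, differed by 0.43 and 0.21 with the hairpins and 0.55 with overexpression. HSF1, the heat shock transcription factor, differed by 0.00 and 0.02 with the hairpins and 0.48 with overexpression. NFKB1, a subunit of NF-kappa-B listed among regulators of PD-L1, differed by 0.13 and 0.06 with the hairpins and 0.54 with overexpression. IRF1, also listed for PD-L1, differed by 0.00 with both hairpins, where it lay below the filter, and by 0.35 with overexpression. JAK1, from the same list, differed by -0.22 and 0.00 with the hairpins and 0.32 with overexpression. ATF4, listed for NKG2D ligands, differed by 0.17, -0.03 and 0.04. Above the filter, 3 of 5 NKG2D-ligand regulators and 4 of 10 PD-L1 regulators were higher with both hairpins, where 53.7% of all genes were. With overexpression 4 of 4 and 10 of 11 were higher, where 58.7% of all genes were, and these counts were not recomputed after rescaling. The part of these regulators in the ligand values was not tested.

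The 7 partner genes past 2-fold between the control arrays were as follows. Higher in A549 were CEACAM1, an inhibitory adhesion ligand (log2 difference 2.31), and the checkpoint kinase CHEK1 (1.97). Lower in A549 were ICAM1 (-3.43), LGALS3 (-1.56), the membrane protease MMP14 (-1.27), the peptide transporter subunit TAP2 (-1.24) and TNFRSF14, the ligand of BTLA (-1.13). For all of these but CEACAM1 and TAP2 the lower value lay below its array's median, so the size is a lower bound.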

How the data were processed

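Per the labels' protocols, ribosomal RNA was removed from total RNA, and biotin-labelled sense cDNA went onto 1 exon array per sample. Per the submitters' processing notes, the deposited log2 values came from Affymetrix Power Tools with RMA. Versions, library file and build are not given in the sources used here. RMA corrects background, quantile-normalizes the arrays and summarises probes.

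Samples were grouped by title; the description of hairpin 2 names another gene. Only features with 1 symbol were used (14432 of 22011; the brightest per gene). Differences were taken from the control of the same line. Knockdown (1 residual degree of freedom, prior 0.726) and lines (3, prior 2.37) were fitted across all genes above the filter with limma 3.58.1 in R 4.3.3 (eBayes with a trend, Benjamini-Hochberg adjustment), tested on simulated data. Like-level SDs used 20 bins of mean level. Promoters are from RefSeq.

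The members, lists, thresholds and rules were chosen with earlier results of these data known. Named genes were the members, NEDD9, up to 3 genes per list and comparison by size of difference, and 5 profile neighbours of ULBP1 and CD274. Alternatives changed scaling, trend, filter, fold, feature choice, variance model and arrays used.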

Additional observations from a re-analysis of the deposited data

How the results depend on the processing

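The counts of ligands rest on few genes and single arrays. Without the level filter the knockdown count was 1 (CD274, higher); at the 75th percentile filter the overexpression count was 0. At the lower fold threshold tried, 1 ligand passed with knockdown (ULBP1, higher) and 2 with overexpression (MICB higher, ULBP1 lower). Leaving out a hairpin gave 0 to 2 with knockdown, and the 2, ULBP1 higher and MICB lower, arose without hairpin 2. Between the control arrays 1 passed at 1.5-fold (NECTIN2), and 1 with all arrays of each line (ULBP1). limma called 0 ligands with knockdown under each alternative run. Between lines its ligand calls were 1 without the filter (NECTIN2), 1 to 2 when an array was left out, and 3 after a further quantile normalization (MICB added, lower). ULBP1 was lost without the filter and when any array but the CRL-5907 control was left out, and MICB was called without the A549 control. Over all genes that fit called 2798 to 3638 when an array was left out. Of 98 ligand differences recomputed, 87 moved by less than the spread and 11 by more. All 11 were knockdown means, ULBP1 under each rescaling among them. Part of the 87 was fixed in advance. Each ligand had 1 feature, so averaging features changed nothing, and leaving out a hairpin cannot exceed the hairpins' SD. A reversal past a threshold, possible only for ULBP1 with overexpression, was seen in 0. The sign changed in 4, none larger than 0.06 in the main setting. ULBP1 stayed between 0.47 and 0.57 with knockdown and between -1.60 and -1.51 with overexpression under the scalings. Features of several symbols were added after seeing the data: the one that includes ULBP1 averaged -0.51 with the hairpins. The causes were not tested. Leaving out a hairpin in the limma knockdown fit leaves no residual degree of freedom and was not run. No paired analysis was possible because the groups share fewer than 2 replicate numbers. Detection above background is unknown, which limits CD274, RAET1E and the overexpression value of ULBP1.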
